A study of Mus musculus with 3 samples.

Results

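The miRNAs described here are mmu-miR-451a, mmu-miR-144-3p, mmu-miR-144-5p, mmu-miR-486a-5p and mmu-miR-486b-5p, which are known for their abundance in red blood cells and their precursors. These 5 members were chosen by name, and rows of the deposited table were matched by the miRNA name without the suffix that marks end variants. Rows were found for 4 of the 5 among 1097 items in all, and miR-486b-5p is not analysed here. The 3 small RNA libraries came from cells labelled as fibro/adipogenic progenitors (FAPs), a stromal population of muscle from which fibroblasts and fat cells can arise. All were taken from muscle of wild-type (WT) mice and were not cultured. The cardiotoxin library came from muscle 5 days after injection of cardiotoxin, a venom toxin that destroys fibres, and the denervated library from muscle 3 weeks after sciatic denervation. The normal library came from muscle without injury. The labels give 1 library to each condition and say neither how many animals stood behind a library nor how the cells were purified. No difference below therefore has a replicate check, and no test between conditions was run. Intervals are 95% intervals and cover counting error only, with each count treated as a separate molecule. Reads that carry no molecular identifier need not come from separate molecules, so the intervals can be too narrow.

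miR-144 and miR-451a are made from one primary transcript that the erythroid factor GATA1 switches on, and both help red cell precursors mature and withstand oxidative stress. miR-451a is processed in an unusual way. Its hairpin is too short for Dicer, is cut by the slicer Argonaute 2 and is then trimmed from the 3′ end, so the mature miRNA runs from the stem into the loop. miR-486 is made from the gene of ankyrin 1, a membrane skeleton protein, in erythroid cells and, from a muscle promoter within that gene, in muscle fibres. In muscle it is known to restrain Foxo1, a transcription factor that drives atrophy. A level of miR-486 in muscle can thus come from blood or from fibres, whereas miR-451a and miR-144 are chiefly erythroid.

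The sequences of the miR-144 and miR-451a gene are shown because the arms of this gene gave different readings. They were taken from RefSeq (GRCm38.p6), in which 3 of the 5 members were matched, and capitals mark the seed, bases 2 to 8 from the 5′ end.
mmu-miR-451a: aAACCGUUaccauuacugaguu
mmu-miR-144-3p: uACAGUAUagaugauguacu
mmu-miR-144-5p: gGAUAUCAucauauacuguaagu
The 3 seeds differ, and none of the other mature miRNAs among 1679 names in the RefSeq table had the same bases 2 to 8. For miR-144-3p, 1 other miRNA, miR-101a-3p, had the same bases 2 to 7. The deposited rows of miR-451a (22 bases) and miR-144-5p (23 bases) had the sequences above, whereas that of miR-144-3p had 19 bases and lacked the last base of the RefSeq form.

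In the hairpins, capitals mark the mature miRNAs.
Mir451a: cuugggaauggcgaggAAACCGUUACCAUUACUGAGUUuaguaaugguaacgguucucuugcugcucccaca
Mir144: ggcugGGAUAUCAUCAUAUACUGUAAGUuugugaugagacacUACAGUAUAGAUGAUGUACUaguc
Folding with RNAfold placed bases 35 to 38 of the 72-base Mir451a hairpin in the terminal loop. miR-451a took up bases 17 to 38, so that 18 of its 22 bases lay before the loop and 4 in it. In the 66-base Mir144 hairpin both arms lay outside the loop. Mir144 lies on the plus strand of chromosome 11 from 78073005 to 78073070 and Mir451a on the same strand from 78073170 to 78073241, with 99 bases between them. Another annotated hairpin, Mir451b, covers the Mir451a interval on the minus strand. Mir486 lies on chromosome 8 from 23142555 to 23142682, inside an intron of Ank1 (22974836 to 23150501). Mir3107, which RefSeq also calls mir-486b, lies across it on the minus strand from 23142573 to 23142662. The mature 5p forms of miR-486a and miR-486b have the same letters in mouse, so the row named miR-486a-5p can hold reads of both genes.

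The libraries held 3636249 counts (cardiotoxin), 7193088 (denervated) and 4471365 (normal), and levels are given as counts per 1000000 counts of the library (CPM). A count of 3, taken as the limit that a count of 0 allows, equals 0.825 CPM in cardiotoxin, 0.417 CPM in denervated and 0.671 CPM in normal. miR-21a-5p alone held 53.9% of the counts in cardiotoxin, 10.4% in denervated and 2.14% in normal. The CPM of any other miRNA in cardiotoxin depends on whether this share is counted in the total. The label FAPs was checked against 9 mesenchymal miRNAs, of which 8 had rows. Their summed level was 9419 CPM in cardiotoxin, 200826 in denervated and 193848 in normal, and miR-214-5p had a count of 0 in cardiotoxin. miR-143-3p alone held 7665 CPM of the cardiotoxin sum. The median log2 ratio of the 8 to normal, taken on CPM + 1, was -6.91 in cardiotoxin and 0.23 in denervated. The 7 leukocyte miRNAs summed to 23792 CPM in cardiotoxin, 762 CPM in denervated and 422 CPM in normal. The library labelled cardiotoxin thus lacked most of the mesenchymal signal of the others.

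miR-451a was low in every library and several times higher in both injuries than in normal muscle. It had 63 counts or 17.3 CPM (13.3 to 22.2) in cardiotoxin and 121 counts or 16.8 CPM (14.0 to 20.1) in denervated. Normal had 18 counts or 4.03 CPM (2.39 to 6.36). The intervals of cardiotoxin and denervated overlapped, and that of normal lay below both. Among 659 mature mouse miRNAs, miR-451a stood at rank 271 from the top in cardiotoxin, 311 in denervated and 405 in normal. In bulk RNA of this kind, more red cells and more miR-451a per cell cannot be told apart.

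In fold terms, miR-451a was 4.30-fold higher in cardiotoxin than in normal (2.52 to 7.72) and 4.18-fold higher in denervated than in normal (2.54 to 7.29). With miR-21a-5p removed from the totals, the cardiotoxin fold on the log2(CPM + 1) scale was 7.54, against 3.65 with the full totals on that scale. The 2 comparisons share the normal library, whose 18 counts set most of the width of both intervals. On the log2(CPM + 1) scale the ratio was 1.87 in cardiotoxin against normal and 1.83 in denervated against normal. Of the 446 items whose mean over the libraries reached 10 CPM, it stood at place 72 from the top in cardiotoxin against normal and at place 12 in denervated against normal. An item is called here when its log2(CPM + 1) ratio is at least 2-fold. In cardiotoxin against normal, 32.3% of the 446 items were called higher and 39.5% lower, and in denervated against normal 6.28% were called in each direction. A ratio of at least 2-fold was therefore common in the cardiotoxin library and uncommon in the denervated one. Between cardiotoxin and denervated, miR-451a differed by 1.03-fold (0.747 to 1.41), and by 1.95-fold on the log2(CPM + 1) scale with miR-21a-5p removed from the library totals. In that comparison 33.6% of items were called higher and 38.6% lower.

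miR-144-3p, made from the same transcript, did not share this pattern. It had 5 counts or 1.38 CPM (0.446 to 3.21) in cardiotoxin, 22 counts or 3.06 CPM (1.92 to 4.63) in denervated and 13 counts or 2.91 CPM (1.55 to 4.97) in normal. The 3 intervals overlapped. Its level was 0.473-fold that of normal in cardiotoxin (0.132 to 1.41) and 1.05-fold in denervated (0.507 to 2.27), and neither interval excluded 1. The log2(CPM + 1) ratio in cardiotoxin was -0.72, but 0.0036 with miR-21a-5p removed from the totals. On the authors' signal plus 1 the log2 ratio was -1.22, past 2-fold. That signal was 5.62 in cardiotoxin and 14.5 in normal, so the pseudocount weighed less there than on CPM. The cardiotoxin to denervated fold was 0.450 (0.133 to 1.22). The log2 ratio of that comparison was -1.02 with edgeR's TMM factors and -1.40 on the authors' signal, both past 2-fold. With miR-21a-5p removed from the totals it was -0.15. With a mean of 2.45 CPM miR-144-3p did not pass the filter of 10 CPM.

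miR-144-5p, the other arm of the hairpin, was counted in the denervated library alone, with 8 counts or 1.11 CPM (0.480 to 2.19). It had a count of 0 in cardiotoxin, which allows up to 0.825 CPM, and in normal, which allows up to 0.671 CPM. The interval of the cardiotoxin to denervated fold ran up to 1.16 and so included 1. That of the denervated to normal fold began at 1.06 with no upper end, and the denervated library was also the deepest. In denervated the 5p arm stood at 0.364 of the 3p arm (0.140 to 0.848). Of the 5 members, 2 passed the filter, miR-451a and miR-486a-5p.

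miR-486a-5p was the most abundant member in each library and lay within 2-fold across all 3, although it was 2.56-fold above normal in cardiotoxin with miR-21a-5p removed from the totals. It had 274 counts or 75.4 CPM (66.7 to 84.8) in cardiotoxin, 564 counts or 78.4 CPM (72.1 to 85.2) in denervated and 276.5 counts or 61.8 CPM (54.7 to 69.5) in normal. Its level was 1.22-fold that of normal in cardiotoxin (1.03 to 1.45) and 1.27-fold in denervated (1.10 to 1.47). The log2 ratio was 0.28 in cardiotoxin against normal, at place 193 of 446, and 0.34 in denervated against normal, at place 93. The cardiotoxin to denervated fold was 0.961 (0.829 to 1.11). A row of the 3p arm of miR-486b had 0 counts in cardiotoxin, 9.5 in denervated and 3 in normal. In cardiotoxin and normal this was at or below the limit of 3 counts.

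**Figure D1:**
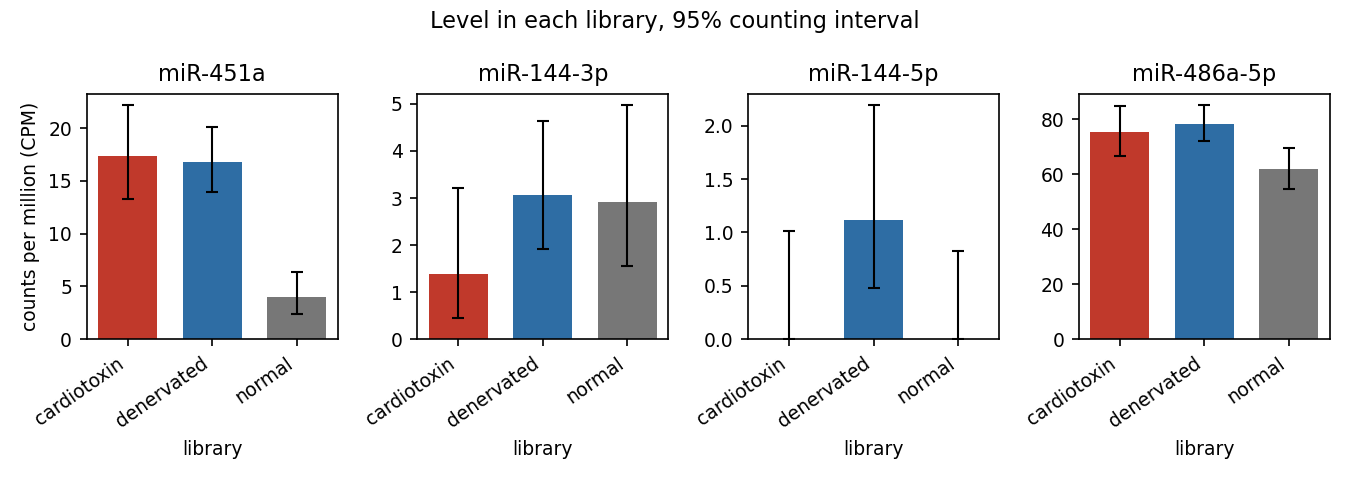
Level of each member with a row (CPM on the y axis, each panel with its own scale) in the cardiotoxin, denervated and normal libraries. Bars are single libraries and lines are 95% counting intervals. miR-451a stood at 17.3 CPM in cardiotoxin, 16.8 in denervated and 4.03 in normal, while miR-486a-5p stood between 61.8 and 78.4 CPM in the 3 libraries and the intervals of miR-144-3p overlapped.

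The authors tested each row by chi-square across the libraries. In the authors' deposited table the p-value was 2.81e-10 for miR-451a, 0.00441 for miR-486a-5p, 0.00651 for miR-144-5p and 0.220 for miR-144-3p. That test compares the reads of these libraries, not the conditions.

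Ratios between members within a library do not depend on the total used for scaling. For each count of miR-486a-5p there were 0.230 counts of miR-451a in cardiotoxin (0.172 to 0.303), 0.215 in denervated (0.175 to 0.262) and 0.0651 in normal (0.0381 to 0.105). Relative to miR-486a-5p, miR-451a was thus 3.52-fold higher in cardiotoxin than in normal (1.99 to 6.49) and 3.29-fold higher in denervated than in normal (1.94 to 5.85). The same quantity was 1.07-fold in cardiotoxin against denervated (0.752 to 1.52). The intervals against normal excluded 1 in both injuries, and that between the injuries included it.

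The proportion of miR-144-3p to miR-451a differed in the other direction. There were 0.0794 counts of miR-144-3p per count of miR-451a in cardiotoxin (0.0249 to 0.195), 0.182 in denervated (0.110 to 0.288) and 0.722 in normal (0.325 to 1.56). In cardiotoxin this ratio was 0.113-fold that of normal (0.0277 to 0.392), and in denervated it was 0.254-fold (0.100 to 0.650). Between cardiotoxin and denervated the ratio was 0.438-fold with an interval that included 1 (0.124 to 1.26). These values rest on 5, 22 and 13 counts of miR-144-3p and on a row 1 base shorter than the RefSeq form. How the authors assigned reads with other ends is not stated in the labels or the table.

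Set against miR-1a-3p, the most abundant muscle fibre miRNA on the list used here, miR-486a-5p differed in all 3 libraries. There were 0.149 counts of miR-486a-5p per count of miR-1a-3p in cardiotoxin (0.131 to 0.169), 0.0430 in denervated (0.0394 to 0.0467) and 0.0908 in normal (0.0798 to 0.103). The ratio was 1.64-fold higher in cardiotoxin than in normal (1.37 to 1.97). In denervated it was 0.474-fold that of normal (0.408 to 0.553). The direction in cardiotoxin depended on the fibre miRNA chosen. Relative to miR-133a-3p, miR-486a-5p was 2.06-fold higher in cardiotoxin than in normal (1.67 to 2.55). It was 0.125-fold relative to miR-206-3p (0.0967 to 0.161), a miRNA of regenerating fibres, and 0.409-fold relative to miR-133b-3p (0.270 to 0.611). In denervated against normal it was lower relative to all 5 fibre miRNAs that passed the filter, from 0.0504-fold to 0.474-fold, and each interval excluded 1. miR-1a-3p itself was at 506 CPM in cardiotoxin, 1825 in denervated and 681 in normal, a wider range than that of miR-486a-5p in the same libraries.

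**Figure D2:**
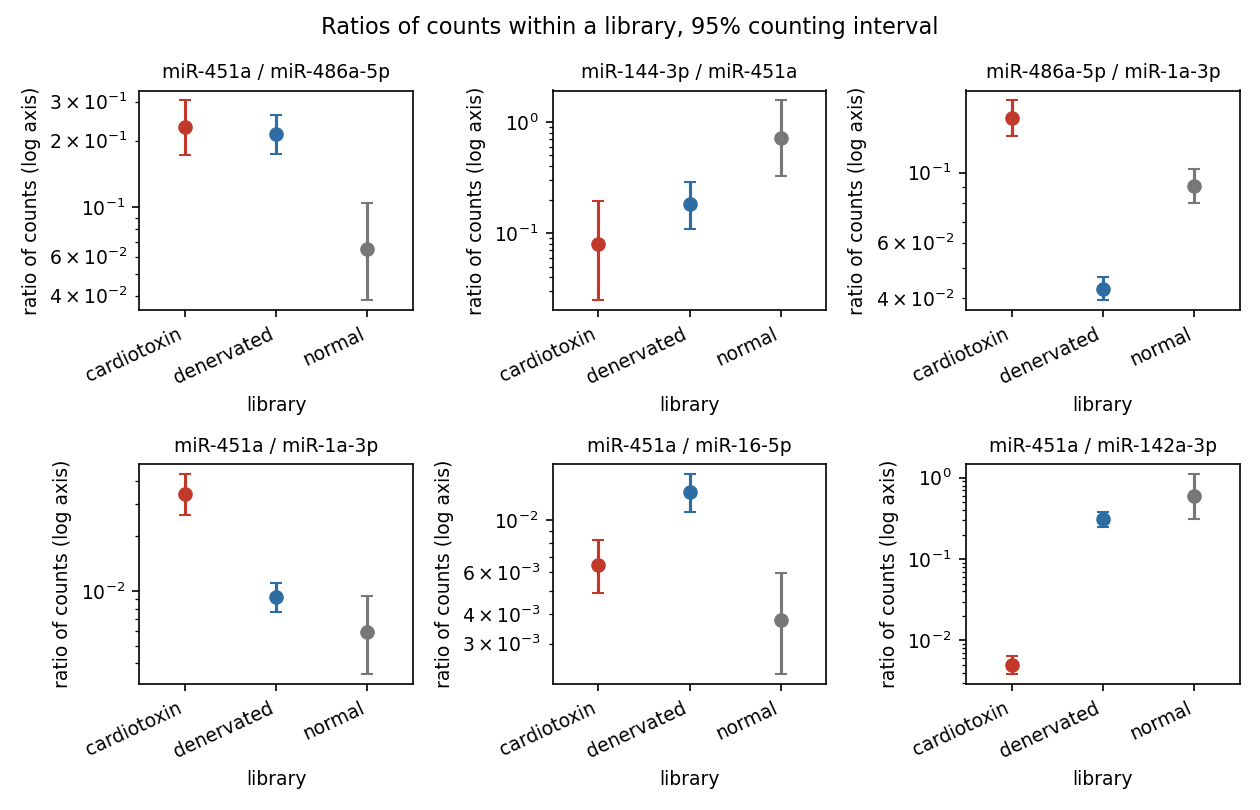
Ratio of counts of 2 miRNAs within a library (y axis, logarithmic, each panel with its own range) in the cardiotoxin, denervated and normal libraries, with 95% counting intervals. miR-451a per miR-486a-5p was 0.230 in cardiotoxin, 0.215 in denervated and 0.0651 in normal, while miR-144-3p per miR-451a was 0.0794 in cardiotoxin, 0.182 in denervated and 0.722 in normal.

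Markers of other cell types differed between the libraries beside these members. Of 6 muscle fibre miRNAs with a row, 5 passed the filter. In denervated against normal all 5 were at least 2-fold higher (median log2 ratio 1.64, against -0.09 over all 446 items). Of all items 6.28% were called higher there. The fibre list summed to 3162 CPM in denervated and 905 in normal. In cardiotoxin against normal 2 of the 5, miR-206-3p and miR-133b-3p, were higher and none was 2-fold lower. Of all items 32.3% were called higher and 39.5% lower in that comparison. The fibre miRNAs had a median of -0.36 and a sum of 928 CPM in cardiotoxin. This median was 0.66 with miR-21a-5p removed from the totals and -0.61 with TMM factors, where 1 of the 5 was 2-fold lower. Per count of miR-1a-3p, miR-451a was 5.79-fold higher in cardiotoxin than in normal (3.37 to 10.4) and 1.56-fold in denervated against normal, where the interval included 1 (0.944 to 2.72). Relative to miR-206-3p it was lower in both, at 0.441-fold in cardiotoxin against normal (0.248 to 0.817) and 0.166-fold in denervated against normal (0.0970 to 0.298). Over the 5 fibre miRNAs, miR-451a was higher in cardiotoxin than in normal relative to 4, and 3 of these intervals excluded 1. In denervated against normal 4 of the 5 intervals included 1, and miR-206-3p was the exception. The part of fibre RNA in the level of miR-486a-5p was not tested.

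The leukocyte miRNAs were higher in cardiotoxin than in normal by 2-fold or more in 7 of 7 (median log2 ratio 7.18, against -0.09 over all items). In denervated against normal 4 of 7 were higher (median 1.14). Of all items, 32.3% were called higher in cardiotoxin against normal and 6.28% in denervated against normal. miR-142a-3p, a miRNA of blood-forming lineages, was at 3426 CPM in cardiotoxin, 54.8 in denervated and 6.71 in normal. For each count of miR-142a-3p there were 0.00506 counts of miR-451a in cardiotoxin (0.00388 to 0.00647), 0.307 in denervated (0.248 to 0.377) and 0.600 in normal (0.315 to 1.11). The leukocyte signal and miR-451a thus did not keep one proportion, since miR-451a per miR-142a-3p was 0.00847-fold that of normal in cardiotoxin (0.00431 to 0.0170). In denervated it was 0.513-fold, with an interval that included 1 (0.266 to 1.01). The other leukocyte miRNAs gave other values, and 6 of the 7 had counts in all libraries. In cardiotoxin against normal, miR-451a was lower relative to each of the 6, from 0.00590-fold against miR-223-3p to 0.730-fold against miR-155-5p, and 5 of these intervals excluded 1. In denervated against normal, it was higher relative to miR-342-3p (4.12-fold, 2.48 to 7.23), miR-150-5p (2.35-fold, 1.41 to 4.14) and miR-155-5p (1.84-fold, 1.04 to 3.40). For the other 3 the interval included 1. The part of blood cells in these levels was not tested.

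A further list held 12 miRNAs that red blood cells also contain in quantity but that many other cells make, among them miR-16-5p and miR-92a-3p. All 12 had rows and 10 passed the filter. In cardiotoxin against normal, 8 of the 10 were at least 2-fold higher and none lower, with a median log2 ratio of 1.45, where 32.3% of all items were higher, 39.5% were lower and the median of all items was -0.09. From 6 to 10 of the 10 were higher across the scalings. In denervated against normal, 1 was higher and 2 were lower, where 6.28% of all items were called in each direction. The median was -0.07, or 0.06 once miR-21a-5p was removed from the totals, against -0.09 over all items. The 1 was miR-15b-5p and the 2 were miR-182-5p and miR-183-5p, and these 3 are named here after their values were seen.

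miR-16-5p, a regulator of the cell cycle and a steady miRNA of red cells, was at 2696 CPM in cardiotoxin, 1285 in denervated and 1067 in normal. It was 2.53-fold higher in cardiotoxin than in normal and 1.20-fold in denervated against normal. miR-92a-3p, of the miR-17-92 cluster, was at 4438 CPM in cardiotoxin, 1490 in denervated and 959 in normal. miR-25-3p, a relative of miR-92a-3p, was at 3804 CPM in cardiotoxin, 2790 in denervated and 2888 in normal. miR-484 was at 3861 CPM in cardiotoxin, 1509 in denervated and 1602 in normal. In denervated these 4 were therefore all within 2-fold of normal, while miR-451a was 4.18-fold above it. Relative to miR-16-5p, miR-451a was 3.47-fold higher in denervated than in normal (2.10 to 6.06) and 1.70-fold in cardiotoxin against normal, with an interval that included 1 (0.994 to 3.06). Over the 10 miRNAs of the list, miR-451a was higher in denervated than in normal relative to 9 with intervals that excluded 1, and in cardiotoxin against normal relative to 4. In cardiotoxin against normal the other 6 intervals included 1, and 3 of the 10 ratios were below 1.

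Both endothelial arms, miR-126a-3p and miR-126a-5p, were at least 2-fold higher in cardiotoxin than in normal, as were 32.3% of all items. Both were at least 2-fold lower in denervated than in normal, as were 6.28% of all items. The summed level of the 2 arms was 19251 CPM in cardiotoxin, 1659 in denervated and 5401 in normal. miR-451a stood at 17.3 CPM in cardiotoxin, 16.8 in denervated and 4.03 in normal. The part of vessel cells in its level was not tested.

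**Figure D3:**
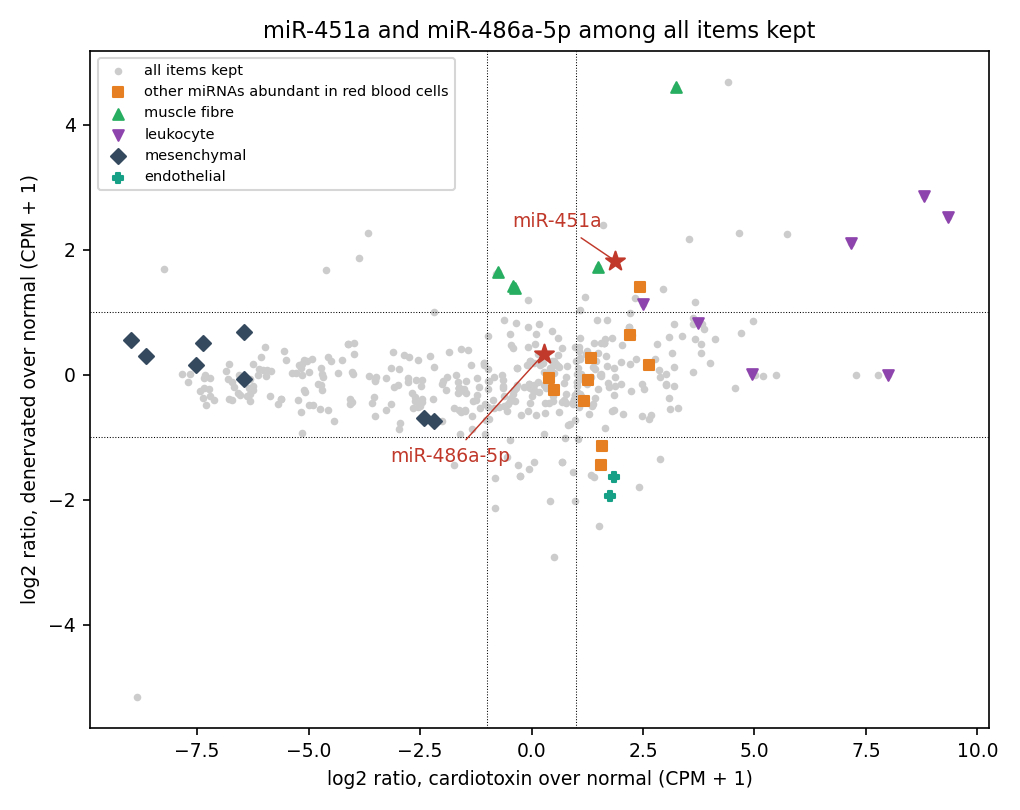
Log2 ratio of CPM + 1 in cardiotoxin over normal (x axis) and in denervated over normal (y axis) for the 446 items that passed the filter of 10 CPM, with dotted lines at 2-fold. Both axes share the normal library. miR-451a lies at 1.87 and 1.83, near miR-133b-3p, and miR-486a-5p at 0.28 and 0.34, near the centre, while leukocyte miRNAs lie to the right and mesenchymal miRNAs to the left.

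Likeness of pattern was measured as the distance between 2 miRNAs in the plane of those log2 ratios, over 3 libraries and 364 mature mouse miRNAs that passed the filter. The 4 nearest to miR-451a were miR-133b-3p (distance 0.40), miR-15b-5p (0.70), miR-146b-5p (0.75) and miR-132-5p (0.88). miR-133b-3p stood at 29.5 CPM in cardiotoxin, 35.2 in denervated and 9.91 in normal. Its counts were fractional in cardiotoxin (107.3) and normal (44.3), as were those of miR-133a-3p, and how such counts were made is not stated. miR-133a-3p had a log2 ratio of -0.75 in cardiotoxin against normal and 1.64 in denervated against normal. miR-15b-5p stood at 367 CPM in cardiotoxin, 181 in denervated and 67.5 in normal. The nearest to miR-486a-5p were miR-362-3p (0.14), miR-674-5p (0.15), let-7g-5p (0.19) and miR-1839-5p (0.20), which all lay close to normal in both injuries. The nearest to miR-144-3p were let-7i-3p (0.16), miR-26b-5p (0.16), miR-328-3p (0.25) and miR-101b-3p (0.26). As miR-144-3p rests on 5 to 22 counts a library, its place in the plane is imprecise.

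miR-101a-3p, the miRNA with the same bases 2 to 7 as miR-144-3p, was at 3466 CPM in cardiotoxin, 28972 in denervated and 27066 in normal. Its CPM exceeded that of miR-144-3p by 2521-fold in cardiotoxin, 9473-fold in denervated and 9309-fold in normal.

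The scaling of the cardiotoxin library moved miR-486a-5p out of its counting interval against normal. The ratios of miR-451a and miR-144-3p hold a pseudocount and cannot be set directly against their intervals. By counts without it, miR-451a lay above its interval with miR-21a-5p removed from the totals, and miR-144-3p stayed inside its own. The pseudocount of 1 CPM shrinks the ratios of low miRNAs, and the intervals are of folds without it. With miR-21a-5p removed from the library totals, the median log2 ratio of all items in cardiotoxin against normal moved by 1.06. miR-451a was then at 2.91, and miR-486a-5p at 1.36, which is past 2-fold. With edgeR's TMM factors the median moved by -0.28, miR-451a was at 1.60 and miR-486a-5p at -0.002, just below normal. In denervated against normal the median moved by at most 0.11, and miR-486a-5p stayed above normal and within 2-fold. There miR-451a stayed between 1.83 and 2.12, the latter with the authors' signal, where the pseudocount weighs less. Each scaling applies a factor per library, so miR-451a and the median of all items shift together apart from the pseudocount. That miR-451a lay above the median in both injuries under all 6 scalings is therefore not a separate check.

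**Figure D4:**
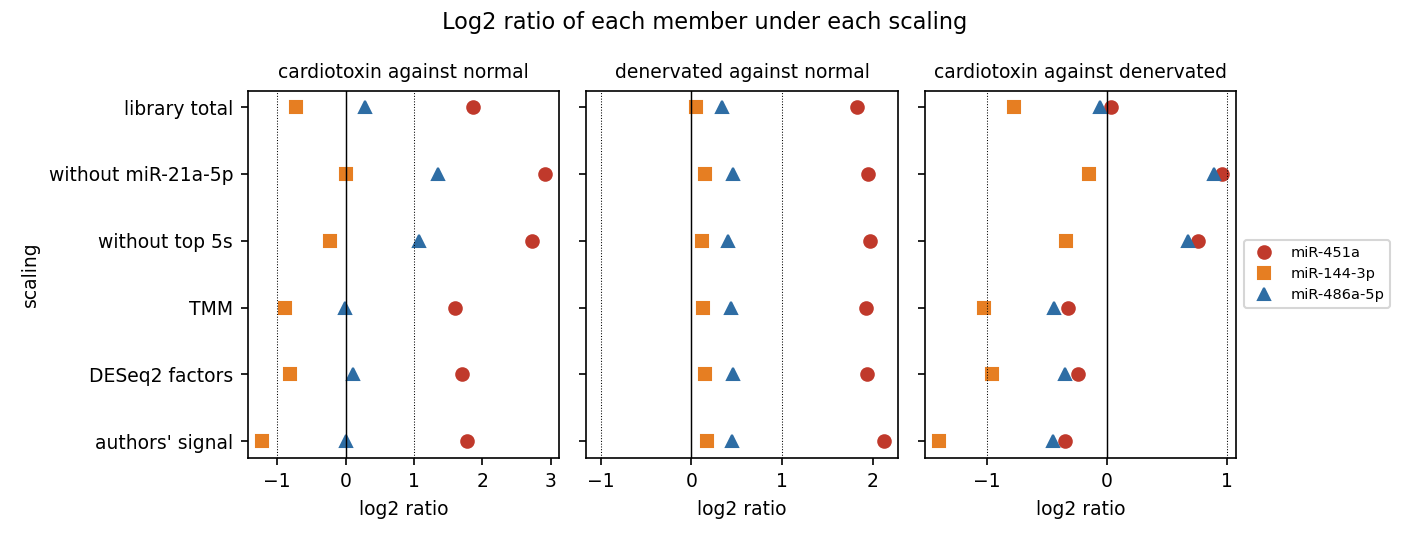
Log2 ratio (x axis) of miR-451a, miR-144-3p and miR-486a-5p under 6 scalings (y axis), for cardiotoxin against normal, denervated against normal and cardiotoxin against denervated, with dotted lines at 2-fold. Points are single values without error. miR-451a lies past 2-fold against normal under each scaling, while miR-486a-5p in cardiotoxin against normal runs from -0.002 with TMM to 1.36 without miR-21a-5p in the totals.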

How the data were processed

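Total RNA was made into small RNA libraries with a TruSeq kit (Illumina), per the labels' protocols. The submitters' processing notes list StringTie but no version of it. No aligner, miRBase release or build is given in these sources. The deposited table holds an estimated count per row (raw, per the file headers), of which between 87.9% and 88.4% per library were whole within a tolerance of 1e-06. It also holds a deposited normalized signal, which is the count times a factor per library of 1.12 (cardiotoxin), 0.746 (denervated) and 1.11 (normal), and the authors' chi-square p-value. The table had 1108 rows, and 3 emptied lines are not analysed here. Rows of one mature mouse name were summed, which left 1097 items.

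Counts were divided by the library total (CPM). Ratios used a pseudocount of 1 CPM, or of 1 unit with the authors' signal, and 446 items had a mean of at least 10 CPM. Folds and ratios within a library have exact conditional binomial (Clopper-Pearson) intervals, levels exact Poisson intervals and ratios of ratios conditional odds ratio intervals, with counts rounded to whole numbers (scipy 1.17.1). Scaling alternatives used edgeR 4.0.16 and DESeq2 1.42.0 factors on rounded counts, and hairpins were folded with RNAfold 2.7.2. Intervals and calls were tested on simulated Poisson counts, the model that the intervals assume. That test could not cover duplicate reads or variation between animals. Members and lists were chosen with earlier results of these data known. The miRNAs named by rule are the members, their other arms, up to 4 per list with the highest mean and the 4 nearest in pattern. Others were named outside this rule, among them miR-21a-5p, miR-101a-3p, miR-214-5p, miR-150-5p, miR-155-5p, miR-182-5p and miR-183-5p. Some of these were named after their values were seen.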

Additional observations from a re-analysis of the deposited data

How the results depend on the processing

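No paired analysis was possible because each condition had 1 library, and for the same reason no library could be left out. With a pseudocount of 5, the log2 ratio of miR-451a was 1.31 in cardiotoxin against normal and 1.27 in denervated against normal, still past 2-fold. That of miR-486a-5p in cardiotoxin against normal was 1.36 without miR-21a-5p in the totals, 1.08 without the 5 most abundant items of any library (9 items), -0.002 with TMM and 0.0019 with the authors' signal. In cardiotoxin against denervated, miR-451a was at 0.96 without miR-21a-5p and 0.76 without the most abundant, and miR-486a-5p at 0.89, 0.68, -0.44 (TMM), -0.35 (DESeq2 factors) and -0.45 (authors' signal). Within a library, a pseudocount of 5 gave log2 ratios of miR-451a over miR-486a-5p of -1.93 in denervated and -2.89 in normal, of miR-144-3p over miR-451a of -1.81 in cardiotoxin and -1.44 in denervated, and of miR-144-5p over miR-451a of -1.84 in denervated, since it fills in low levels. No ratio with miR-144-5p at a count of 0 in both libraries, or in the library itself, was formed.

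Of all items, 220 were at least 2-fold higher in cardiotoxin against normal without miR-21a-5p in the totals. With no filter, 342 were higher and 360 lower in cardiotoxin against normal, 109 and 128 in denervated against normal, and 340 and 318 in cardiotoxin against denervated. With a mean of at least 100 CPM these were 60 and 94, 13 and 12, and 60 and 93, since fewer items were counted. The other 162 of 193 values stayed within their counting interval or within 1.5 times the count. Ratios between libraries hold a pseudocount that the intervals lack, so for the low miR-451a and miR-144 this can be lenient. It was lenient for miR-451a in cardiotoxin against normal without miR-21a-5p in the totals. Rows of other species for the members numbered 0, and each member had a single row. Depth limits miR-144 most, with 5 to 22 counts of the 3p arm.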
